A study of Mus musculus with 6 samples.

Results

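The SR proteins, the hnRNPs and a set of core factors of the spliceosome were followed as RNA in E0771 cells after downregulation of lamin A/C. The members were all genes of the count table whose symbol begins with Srsf, Hnrnp, Sf3a or Sf3b, together with U2af1, U2af2, Tra2a, Tra2b, Rbm39 and Ptbp1. This gave 42 members of the 10520 genes in the table, namely 10 Srsf, 17 Hnrnp, 3 Sf3a and 6 Sf3b genes and the 6 genes named singly. E0771 is a breast adenocarcinoma line of C57BL/6 mice, grown here in culture. The shControl cells carried an empty lentiviral pLKO.5-puro vector and the shLmna cells carried an shRNA against lamin A/C, which the sample titles call shRNA4. Both groups were selected with puromycin and expanded as transduced populations, with no clone named in the labels, and each gave 3 libraries. The labels do not say that the 3 libraries came from separate cultures, so the p-values measure the spread between these libraries, which may be technical.

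Splicing of a nuclear pre-mRNA begins when the U1 particle marks the start of an intron and U2AF, SF1 and the U2 particle mark its branch point and end. The SF3A and SF3B complexes are the protein core of U2 and hold it on the branch site. SR proteins bind exonic enhancers through RNA recognition motifs and recruit U1 and U2AF through arginine-serine repeats, while many hnRNPs coat introns and oppose them or loop exons out, so the balance between the families sets which exons enter an mRNA. Many of these genes limit their own output by including a poison exon, which sends the transcript to nonsense-mediated decay. The measurement used here was MARS-seq, which primes on poly(A) tails, reads transcripts at their 3' ends and uses a unique molecular identifier (UMI) to count every captured molecule once. Counts near the 3' end do not tell such isoforms apart. The values below are sums over the final 1000 bases of each annotated gene plus 100 bases beyond its end. Transcripts that end outside this window are not counted. In a culture measured in bulk, fewer cells of a type and less RNA per cell cannot be told apart.

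The libraries held between 1846208 and 3242051 UMIs. Lmna, the targeted gene, fell by 1.20 on the log2 scale (SE 0.13, adjusted p = 3.5e-05, edgeR). The adjusted p-values here come from the quasi-likelihood test of edgeR, adjusted by Benjamini-Hochberg over all genes tested. Lmna stood at 808, 871 and 932 CPM in shControl and 387, 374 and 378 in shLmna, where CPM are UMI counts scaled to library size with TMM factors, the scale of all levels given. Of the 9 epithelial markers listed, Epcam, Krt7, Krt8 and Krt18 were in the table, summing to between 265 and 322 CPM in every library. Krt19, Cdh1, Cldn3, Cldn4 and Cldn7 were not in the table. A pair of libraries stood apart. Of the 7 melanocyte markers listed, Tyr was not in the table. The others, Mlana, Pmel, Tyrp1, Dct, Mitf and Sox10, summed to 751 CPM in shControl replicate 3 and 602 in shLmna replicate 2. They summed to 5.87 and 2.18 in the other shControl and 0.747 and 2.65 in the other shLmna libraries. The study also grew B16F10 melanoma cells, and the origin of these UMIs was not tested. Results are therefore given with all libraries and, where the call changes, without this pair or with a term for it. Endothelial, leukocyte and fibroblast markers each summed to at most 26.5 CPM, and of these Lyz2 alone passed the test.

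Most members did not change detectably. Of the 42 members, 39 had enough UMIs to be tested, and 5 of them (12.8%) passed an adjusted p of 0.05, against 13.7% of all 8969 genes tested. Hnrnpll, Srsf10, Hnrnpul2 and Rbm39 were higher in shLmna, where 7.96% of all genes passed upward, and Hnrnpa1 was lower, where 5.78% passed downward. By the study's criteria, which add an absolute Log2FoldChange above 1 and a mean normalized count above 5, 2 members were called, Hnrnpll and Srsf10, against 5.71% of all genes. The share of members called was thus near that of all genes, and it counts Srsf10, which passed the filter on low counts only through shLmna. The median Log2FoldChange of the tested members was 0.04, against 0.0033 for all genes, and their median absolute change was 0.24 against 0.27. The members together took 7537, 7818 and 7680 CPM in the shControl libraries and 7777, 7569 and 7342 in the shLmna libraries, so the summed level overlapped between the groups.

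**Figure D1:**
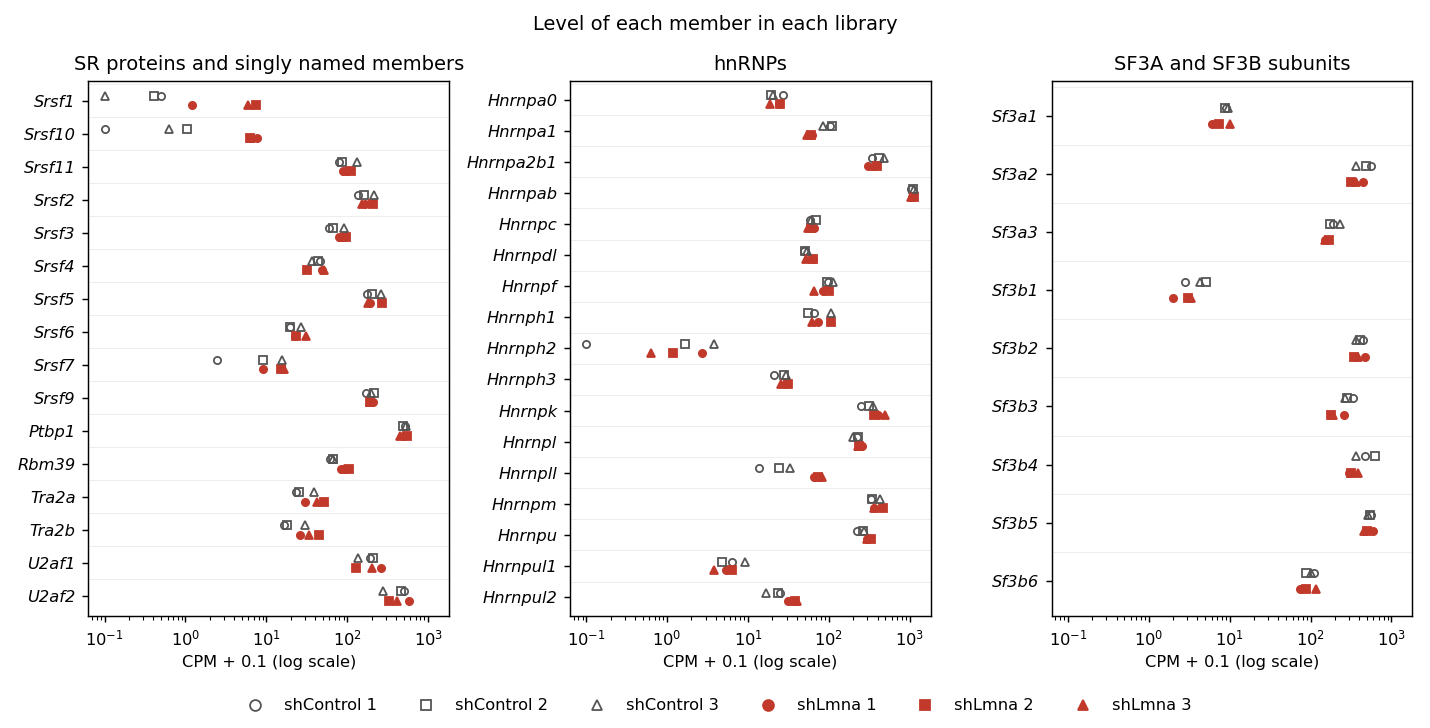
Level of each of the 42 members in CPM plus 0.1, on a log axis, in each shControl library (open grey) and shLmna library (filled red), with a symbol shape for each replicate number. The filled symbols of Hnrnpll, Srsf10, Hnrnpul2 and Rbm39 lie above the open ones, those of Hnrnpa1 lie below, and for most other members the groups overlap.

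The groups did not overlap for 9 tested members. The shLmna libraries were all higher for 6 (Hnrnpll, Hnrnpul2, Hnrnpk, Hnrnpu, Rbm39 and Srsf10), against 16.8% of all genes tested, and all lower for 3 (Hnrnpa1, Sf3a3 and Sf3b3), against 15.7%. With 3 libraries against 3, an exact permutation test of a single gene cannot go below p = 0.1, so the calls rest on the model fitted across all genes.

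Among the hnRNPs, 2 of 16 tested genes rose and 1 fell (18.8%, against 13.7% of all genes). Hnrnpll, which is known for repressing the variable exons of CD45 in activated T cells, lies at chr17:80029487-80062334 on the minus strand (GRCm38). It stood at 13.7, 24.3 and 33.3 CPM in shControl and at 65.0, 73.1 and 82.7 in shLmna. The lowest shLmna library was well above the highest shControl library. The Log2FoldChange was 1.65 (SE 0.24, adjusted p = 0.00047, edgeR), a 3.14-fold rise, and it ranged from 1.36 to 1.91 when each library was left out in turn. Its counted end was the poorest in G and C of all tested members, at 29.0%, and with a correction for GC content the change was 0.86 (adjusted p = 0.0035).

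Hnrnpul2, a relative of the nuclear scaffold protein hnRNP U that lies at chr19:8820010-8834143 on the plus strand, rose less. Its levels were 25.03, 23.4 and 16.4 CPM in shControl and 31.4, 38.4 and 40.3 in shLmna, and the groups did not overlap. The Log2FoldChange was 0.74 (SE 0.21, adjusted p = 0.031, edgeR). Without the pair of libraries with melanocyte markers it was 0.56 and no longer passed (adjusted p = 0.13). The call was also lost without shControl replicate 2 or 3 or shLmna replicate 2 or 3, where the change ranged from 0.59 to 0.80.

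Hnrnpa1 fell, and was the only member to do so in the edgeR fit of group alone. DESeq2, the replicate block, the GC correction and the term for the pair with melanocyte markers each called further members lower, namely Sf3b4, Sf3b3, Srsf11, and Sf3b3 with Sf3b4. Hnrnpa1 encodes an abundant shuttling protein that represses exons and opposes the SR protein SRSF1 at splice sites. Its levels were 104, 108 and 83.5 CPM in shControl and 62.0, 59.2 and 53.0 in shLmna, with no overlap. The Log2FoldChange was -0.76 (SE 0.16, adjusted p = 0.0060, edgeR), and -0.87 without the pair with melanocyte markers (adjusted p = 0.0032). Without shControl replicate 2 it was -0.69 and missed the threshold (adjusted p = 0.056). The last 1000 bases of Hnrnpa1 match 9 processed pseudogenes over at least 100 bases at 95% identity or more, so its count is uncertain where reads could be shared with these copies.

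Hnrnpk, which binds C-rich sequences in RNA and DNA, had 250.3, 317 and 352 CPM in shControl and 410.3, 361 and 487 in shLmna. The groups did not overlap, and the Log2FoldChange of 0.45 (SE 0.16) had an adjusted p of 0.076 by edgeR. It passed without the pair with melanocyte markers (0.66, adjusted p = 0.013) and with a term for that pair (0.45, adjusted p = 0.033), but after GC correction it was -0.0014 (adjusted p = 0.996). Hnrnpu, the scaffold attachment factor of the family, had 224, 264 and 274 CPM in shControl and 298, 336 and 294 in shLmna. Its groups also did not overlap, its Log2FoldChange was 0.29 (SE 0.14, adjusted p = 0.19, edgeR), and this turned to -0.19 after GC correction.

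The other hnRNPs overlapped between the groups. Hnrnpab, a CArG box binding factor, had 1036, 1098 and 1141 CPM in shControl and 1052, 1115 and 1044 in shLmna, with a Log2FoldChange of -0.03 (SE 0.13, adjusted p = 0.92, edgeR). Hnrnpa2b1, the closest relative of Hnrnpa1 in the set, had 345, 414 and 485 in shControl and 302, 393 and 357 in shLmna. Its Log2FoldChange was -0.24 (SE 0.16, adjusted p = 0.35, edgeR), so a fall like that of Hnrnpa1 was not detected in it, and the difference between these genes was not tested. Hnrnpf, which binds runs of G, had 98.5, 94.8 and 112 in shControl and 84.5, 100.1 and 65.7 in shLmna (Log2FoldChange -0.27, SE 0.17). Hnrnpdl had 49.7, 50.5 and 53.3 in shControl and 63.9, 64.3 and 51.4 in shLmna (Log2FoldChange 0.24, SE 0.16). Hnrnpl, which binds CA repeats and is the paralog of Hnrnpll, had 224, 228 and 199 in shControl and 254, 238 and 227 in shLmna. Its Log2FoldChange was 0.14 (SE 0.13, adjusted p = 0.53, edgeR). Over the 16 tested hnRNPs the median was 0.12, with 10 above and 6 below 0. After GC correction their median was -0.10. Hnrnph2 had at most 7 UMIs in any library and was not tested.

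Among the SR proteins, 1 of 9 tested genes passed (11.1%, against 13.7% of all genes). Srsf10 encodes an SR protein that pairs with TRA2 proteins and turns into a general repressor of splicing when it is dephosphorylated, as in heat shock. It lies at chr4:135855747-135869908 on the plus strand. It was counted with 0, 3 and 1 UMIs in shControl and 20, 17 and 12 in shLmna, so it was near the detection limit in every control library. The pooled ratio was 12.9, with an exact 95% interval of 4.71 to 49.0 that covers counting error only. The fitted Log2FoldChange was 3.57 (SE 0.59, adjusted p = 0.00092, edgeR), a value that depends on the prior count at so few UMIs. It ranged from 3.01 to 4.59 when each library was left out in turn, with the highest value without shControl replicate 2. Srsf10 passed the filter on low counts only through its shLmna libraries, so it could be tested only if it was higher there, and its call is given as a description.

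Srsf1, the founding SR protein and a known oncogene in breast epithelium, had too few UMIs for the filter. Its 1, 1 and 0 UMIs in shControl and 3, 20 and 11 in shLmna did not overlap, and the shLmna libraries differed widely among themselves. The pooled ratio was 17.8 (exact 95% interval 4.57 to 153, counting error only). When all 10520 genes were tested without a filter, Srsf1 was called higher (adjusted p = 0.013, edgeR) and 11.5% of all genes were called, which made the members called 6. Srsf1 is in the deposited table, where every gene reaches 6 UMIs in some library, only through its shLmna libraries, so this call is no more than a description. Sf3b1 and Hnrnph2, also outside the filter, were not called in that fit (Log2FoldChange -0.61 and -0.12).

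None of the other 8 tested Srsf genes passed. Srsf5 had 176, 202 and 264 CPM in shControl and 192, 271 and 179 in shLmna, and its Log2FoldChange was 0.01 (SE 0.19, adjusted p = 0.98, edgeR). Srsf3, the smallest SR protein and an adaptor for mRNA export, had 59.4, 66.1 and 90.3 in shControl and 79.2, 97.2 and 86.4 in shLmna (Log2FoldChange 0.30, SE 0.18, adjusted p = 0.30, edgeR). Srsf7, its close paralog, had 2.35, 9.04 and 15.3 in shControl and 8.97, 14.98 and 16.4 in shLmna (Log2FoldChange 0.64, SE 0.44, adjusted p = 0.37, edgeR). The Log2FoldChange was above 0 for 9 of 9 tested Srsf genes, against 4521 of all 8969 genes tested, with a median of 0.04. For Srsf2, Srsf4, Srsf5, Srsf9 and Srsf11 it was at most 0.04 with standard errors of 0.14 or more, so the direction of these genes is not resolved. After GC correction the median of the tested Srsf genes was 0.0065. Srsf2 (-0.41), Srsf3 (-0.12), Srsf5 (-0.093) and Srsf11 (-0.51) were then below 0, and the others stayed above 0. The 10 Srsf genes together were highest in shControl replicate 3 (977 CPM) and shLmna replicate 2 (963), the pair with melanocyte markers, against 689 to 823 in the other libraries.

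**Figure D2:**
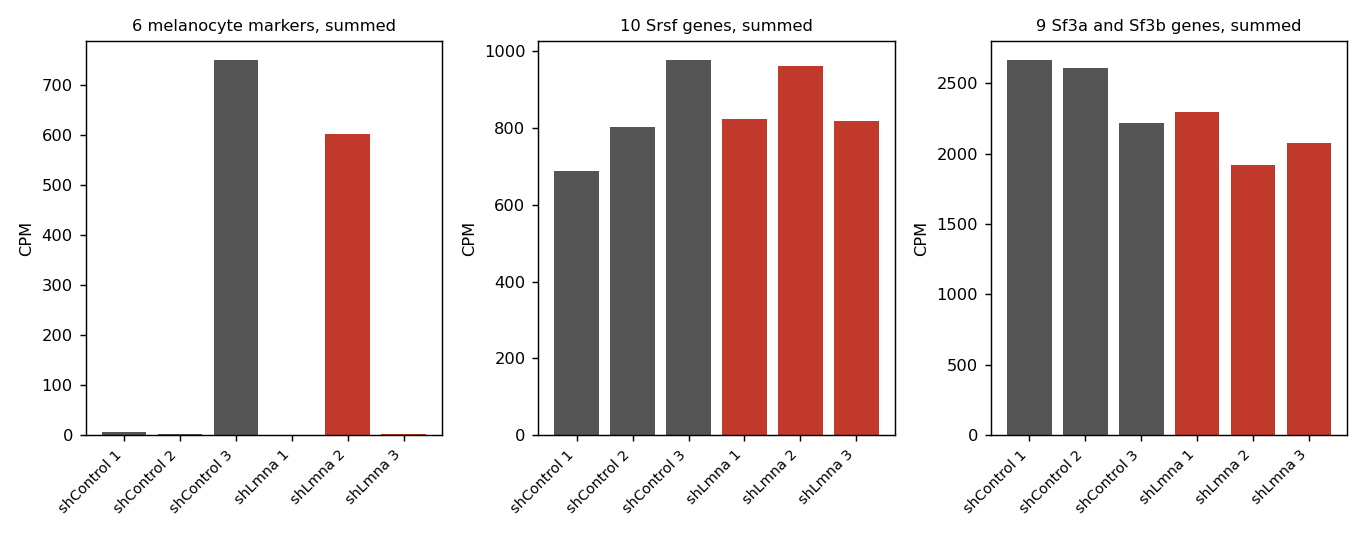
CPM in each library, as bars from 0, summed over 6 melanocyte markers, 10 Srsf genes and 9 Sf3a and Sf3b genes, with shControl in grey and shLmna in red. The markers reach 751 in shControl replicate 3 and 602 in shLmna replicate 2, the same libraries have the highest Srsf sums, and shLmna replicate 2 has the lowest Sf3 sum.

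The TRA2 proteins bind GA-rich exonic enhancers and are partners of the SR proteins. Tra2b had 16.4, 17.8 and 29.6 CPM in shControl and 26.2, 44.2 and 33.9 in shLmna, and the groups overlapped through shControl replicate 3. The Log2FoldChange was 0.74 (SE 0.26, adjusted p = 0.072, edgeR). It passed without the pair with melanocyte markers (0.80, adjusted p = 0.043) and with a term for it (0.71, adjusted p = 0.013). Tra2a had 23.1, 25.6 and 38.6 in shControl and 29.5, 51.2 and 41.9 in shLmna, with a Log2FoldChange of 0.51 (SE 0.24, adjusted p = 0.18, edgeR). In both genes shControl replicate 3 and shLmna replicate 2 were the highest libraries of their group.

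The SF3 subunits had fitted changes below 0 in 8 of 8 tested genes, against 4448 of all 8969 genes tested, with a median of -0.28. These subunits share libraries and are not independent. None passed in the edgeR fit of group alone, while Sf3b4 and Sf3b3 passed in other fits of the same libraries. Sf3b4, which contacts pre-mRNA beside the branch site, had 469, 618 and 364 CPM in shControl and 297, 314 and 389 in shLmna, overlapping between shControl replicate 3 and shLmna replicate 3. The Log2FoldChange was -0.54 (SE 0.18, adjusted p = 0.062, edgeR). It passed without the pair with melanocyte markers (-0.67, adjusted p = 0.017), with a term for that pair (-0.52, adjusted p = 0.017) and with DESeq2. Its end matches 1 processed pseudogene.

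Sf3b3, the large scaffold subunit of SF3B, had 335, 281 and 269 CPM in shControl and 261, 181 and 190 in shLmna. The groups did not overlap, though shControl replicate 3 and shLmna replicate 1 were close. The Log2FoldChange was -0.49 (SE 0.16, adjusted p = 0.062, edgeR), and it passed with the term for the pair with melanocyte markers (adjusted p = 0.017). Without that pair it was -0.44 and did not pass (adjusted p = 0.11). Sf3a3, the SF3A subunit that joins the complex to the U2 particle, had 188, 175 and 233 in shControl and 149, 170.3 and 149 in shLmna, again without overlap. Its Log2FoldChange was -0.34 (SE 0.15, adjusted p = 0.14, edgeR). Sf3a2 overlapped, with 555, 483 and 361 in shControl and 447, 313 and 364 in shLmna (Log2FoldChange -0.32, SE 0.18). Sf3b5, a small SF3B subunit, had 555, 544 and 512 in shControl and 588, 499 and 464 in shLmna (Log2FoldChange -0.05, SE 0.14), and Sf3b2 had a change of -0.0077 (SE 0.15). The 9 Sf3a and Sf3b genes summed to 2664, 2608 and 2220 CPM in shControl and to 2293, 1919 and 2074 in shLmna, overlapping between shControl replicate 3 and shLmna replicate 1. Sf3b1, the subunit most often mutated in cancer, had 7, 16 and 8 UMIs in shControl and 5, 8 and 6 in shLmna and was not tested.

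U2AF recognises the end of the intron, U2AF2 at the polypyrimidine tract and U2AF1 at the AG. U2af1 had 192, 206 and 137 CPM in shControl and 265, 130 and 200 in shLmna (Log2FoldChange 0.15, SE 0.22, adjusted p = 0.71, edgeR). U2af2 had 500.2, 457 and 275 in shControl and 584, 330 and 407 in shLmna (Log2FoldChange 0.10, SE 0.22, adjusted p = 0.82, edgeR). In both genes shControl replicate 3 and shLmna replicate 2 were the lowest libraries of their group, the reverse of the TRA2 genes. Both ends also match processed pseudogenes.

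Rbm39, an SR-rich relative of U2AF2 that aryl sulfonamide drugs target for degradation, rose. It had 60.6, 66.1 and 66.6 CPM in shControl and 83.7, 104 and 91.7 in shLmna, and the groups did not overlap. The Log2FoldChange was 0.53 (SE 0.15, adjusted p = 0.032, edgeR). It was 0.47 without the pair with melanocyte markers (adjusted p = 0.10), 0.52 with a term for it (adjusted p = 0.012), and 0.14 after GC correction (adjusted p = 0.56). Leaving out any library except shControl replicate 3 also lost the call, with changes from 0.44 to 0.59. The counted end of Rbm39 matches 1 processed pseudogene. Ptbp1, the polypyrimidine tract binding repressor, had 516, 493 and 534 in shControl and 491, 552 and 443 in shLmna. Its groups overlapped, with a Log2FoldChange of -0.05 (SE 0.14, adjusted p = 0.85, edgeR).

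**Figure D3:**
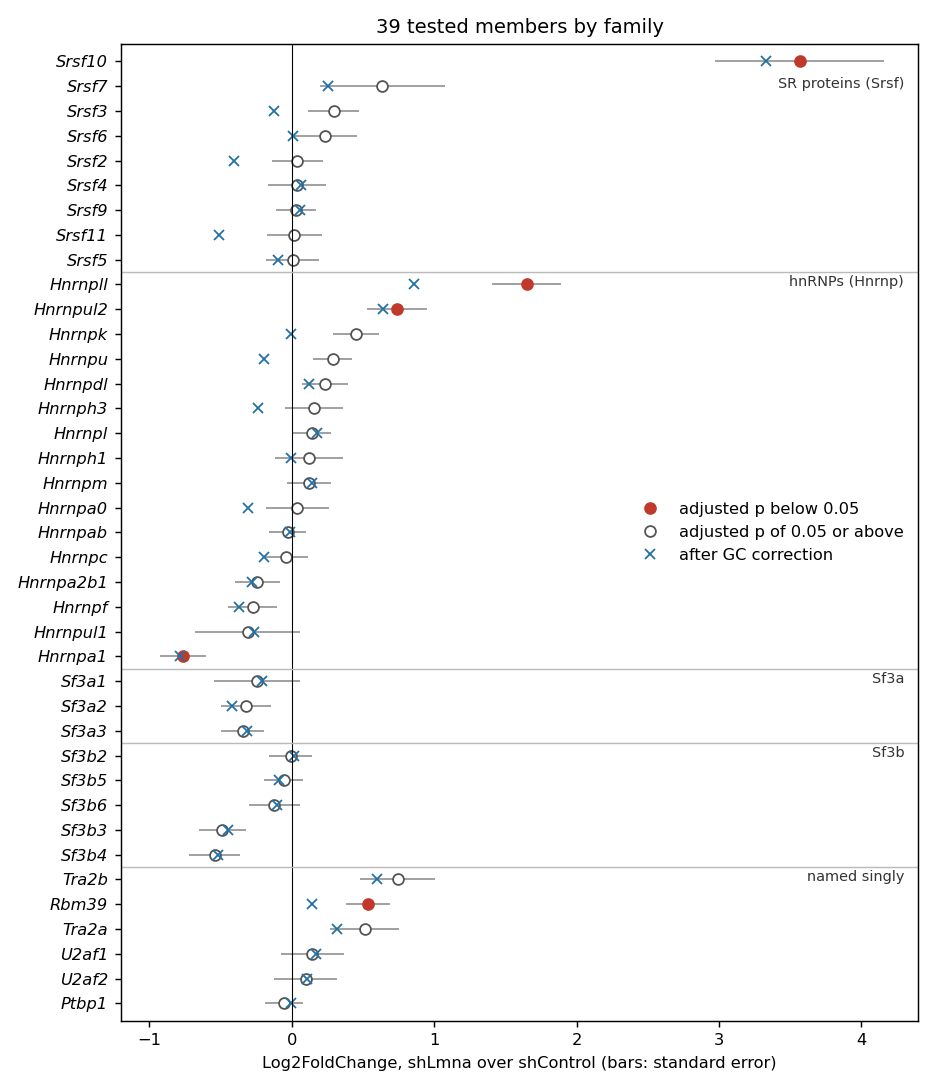
Log2FoldChange of shLmna over shControl with its standard error for the 39 tested members, grouped by family, with filled red circles for an adjusted p below 0.05 and crosses for the value after GC correction. All 8 Sf3a and Sf3b circles lie below 0 and all 9 Srsf circles above it, and the crosses of Hnrnpll, Hnrnpk, Hnrnpu and Rbm39 lie well to the left of their circles. The crosses of Srsf2, Srsf3, Srsf5 and Srsf11 lie below 0, and that of Sf3b2 lies just above it.

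The pair of libraries with melanocyte markers changed which members were called. Without them 6 members passed, namely Hnrnpll, Srsf10, Hnrnpk and Tra2b upward and Hnrnpa1 and Sf3b4 downward, while 13.2% of all genes passed. With all 6 libraries and a term for the pair 9 members passed, the 5 above with Hnrnpk, Tra2b, Sf3b3 and Sf3b4, while 20.8% of all genes passed. Hnrnpll and Hnrnpa1 passed in all 3 fits, as did Srsf10 with its few UMIs. These fits were chosen after the data were seen.

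Base composition moved with the change. Over the counted ends of the members the GC content had its median at 40.2%, while the 10472 genes with a matched transcript had theirs at 47.0%. Of the 18 tested members below 40% GC, 17 had a Log2FoldChange above 0, with a median of 0.26. Of the 11 members from 40 to 50%, 2 were above 0 (median -0.24), and of the 10 at or above 50%, 5 were (median 0.01). Across the 39 members, which share libraries and are not independent, the change and the GC content had a Pearson r of -0.40 and a Spearman rho of -0.58. Over 8937 tested genes these were -0.19 and -0.13. After a correction that removed each library's own trend with GC, the members' values were -0.19 and -0.07, and the median of the 18 members below 40% GC was -0.0031. With this correction 5 members passed, against 16.7% of all genes. Rbm39 was lost, and Srsf11, a member with arginine-serine repeats, passed downward (-0.51, adjusted p = 0.020, edgeR) from 0.02 without it. The SF3 genes kept a median of -0.26 after correction.

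**Figure D4:**
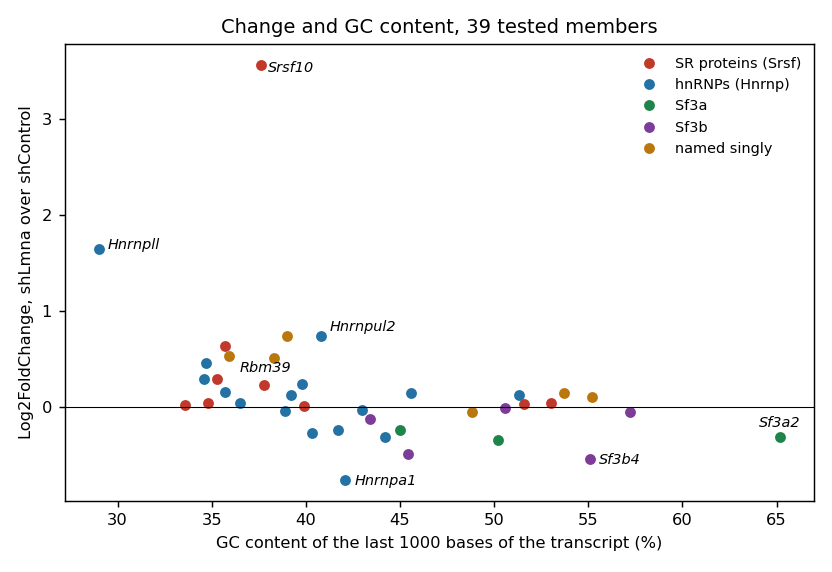
Log2FoldChange of shLmna over shControl against the GC content of the last 1000 bases of the transcript for the 39 tested members, coloured by family. Of the 18 members below 40% GC, 17 lie above 0, and the members with the lowest values, Hnrnpa1 and Sf3b4, lie at 42.1% and 55.1%.

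The RefSeq promoter table (GRCm38.p6) held 3 of the 5 members that passed, and the windows of Hnrnpa1 and Rbm39 lie outside their annotated transcripts. Hnrnpll and Hnrnpul2 are named only. The 250 bases before the start are shown for Hnrnpa1, the member that fell, at chr15:103240147-103240396 on the plus strand, and for Rbm39, a member that rose, at chr2:156180239-156180488 on the minus strand. Capitals mark CCAAT or ATTGG (the CCAAT box on either strand) and GGGCGG or CCGCCC (the GC box on either strand).
Hnrnpa1: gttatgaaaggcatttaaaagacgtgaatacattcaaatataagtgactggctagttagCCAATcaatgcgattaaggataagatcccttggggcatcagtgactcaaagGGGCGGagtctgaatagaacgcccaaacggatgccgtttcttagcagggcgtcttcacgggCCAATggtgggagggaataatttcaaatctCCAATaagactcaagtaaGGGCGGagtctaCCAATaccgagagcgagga
Rbm39: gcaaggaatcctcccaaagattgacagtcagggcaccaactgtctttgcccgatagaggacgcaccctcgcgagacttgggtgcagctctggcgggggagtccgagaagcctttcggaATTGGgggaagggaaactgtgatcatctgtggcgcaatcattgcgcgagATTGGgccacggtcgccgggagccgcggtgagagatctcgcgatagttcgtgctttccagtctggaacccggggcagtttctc
The Hnrnpa1 window held 4 CCAAT boxes and 2 GC boxes at 46.0% GC, and the Rbm39 window held 2 CCAAT boxes and no GC box at 59.2% GC. A CCAAT box was found in 33.8% and a GC box in 32.7% of 32851 promoter windows of this length. A match describes the letters and is not evidence of binding.

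The remaining splicing machinery was listed to set the members beside it. Of 161 listed genes in the table, 152 were tested, and 9 rose and 11 fell (13.2% in all, against 13.7% of all genes), with a median Log2FoldChange of -0.06. With a term for the pair with melanocyte markers, 17 rose and 22 fell, while 20.8% of all genes passed. The number that rose was 17 without shControl replicate 3, where 1580 of 9176 genes passed. The number that fell was 3 and 1 without shControl replicates 1 and 2 and 1 and 2 without shLmna replicates 2 and 3. In the latter fits 794, 540, 757 and 651 of all genes passed, against 1232 with all libraries. None of the 9 tested U1 and 5' splice site factors, 13 Sm and LSm ring proteins, 13 other U2 and branch point factors or 8 minor spliceosome proteins passed. An unadjusted p below 0.05 (edgeR) was seen in 2, 3, 2 and 0 of them, against 2543 of all 8969 genes tested. Tial1, on the U1 list and named after its value was seen, had 4 UMIs summed over shControl and 34 over shLmna. Its pooled ratio was 8.92 (exact 95% interval 3.18 to 34.6, counting error only), which is only a description. The other U2 factors had a median of -0.22, with 11 of 13 below 0, against 4448 of all 8969 genes tested.

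In the U4/U6.U5 tri-snRNP, the particle that brings the catalytic core, 4 of 18 tested genes fell and none rose, against 5.78% of all genes lower and 7.96% higher. Snrnp200, the helicase that unwinds U4 from U6, had 317, 393 and 254 CPM in shControl and 224, 184 and 200.4 in shLmna, a Log2FoldChange of -0.67 (SE 0.16, adjusted p = 0.015, edgeR). Prpf6, which bridges U5 and U4/U6, had 104, 94.1 and 90.3 in shControl and 71.0, 62.5 and 62.5 in shLmna (-0.56, adjusted p = 0.023). Prpf3, a U4/U6 protein, had 145, 132 and 117 in shControl and 101, 78.9 and 85.9 in shLmna (-0.57, adjusted p = 0.024). The fourth was Prpf8, the protein at the heart of the active site, named after its value was seen (-0.64, adjusted p = 0.028). In all 4 the groups did not overlap, and all 4 also passed after GC correction and without the pair with melanocyte markers. Snrnp200, Prpf6 and Prpf3 lost the call without shControl replicate 2 or without shLmna replicate 2 or 3, where their changes ranged from -0.49 to -0.66, and Prpf6 and Prpf3 also without shControl replicate 1.

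The PRP19 complex and the helicases of the catalytic steps had fitted changes below 0 in 23 of 26 tested genes, with a median of -0.32. Of all 8969 genes tested, 4448 were below 0, and the genes of a list share libraries and are not independent. Only Cwc27, a cyclophilin of the activated spliceosome, passed, with 56.7, 58.9 and 69.7 CPM in shControl and 40.7, 36.9 and 42.9 in shLmna (Log2FoldChange -0.62, SE 0.17, adjusted p = 0.024, edgeR). Without the pair with melanocyte markers its change was -0.47 and missed the threshold (adjusted p = 0.14). Among the kinases and importers of SR proteins, 1 of 9 passed. It was Tnpo3, the importin that carries SR proteins into the nucleus, with 266, 290 and 252 in shControl and 205, 194 and 181 in shLmna (-0.48, adjusted p = 0.029, edgeR).

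Of 20 tested exon junction complex and SR-related genes, 2 rose and 2 fell (20.0%, against 13.7% of all genes). Bclaf1, an SR-related protein with links to apoptosis, was counted with 1, 1 and 1 UMIs in shControl and 25, 33 and 31 in shLmna, a pooled ratio of 31.1 (exact 95% interval 10.3 to 154, counting error only; adjusted p = 2.9e-05, edgeR). Pnn, a partner of the exon junction complex, rose by 0.61 (adjusted p = 0.044), which became -0.14 after GC correction. Srrm2, a large scaffold of nuclear speckles, fell by 0.62 (adjusted p = 0.013), with 104, 119 and 111 CPM in shControl and 80.7, 68.3 and 67.3 in shLmna. Eif4a3, the helicase of the exon junction complex, fell by 0.47 (adjusted p = 0.041), and missed the threshold without the pair with melanocyte markers (adjusted p = 0.079).

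Of 36 other sequence-specific regulators tested, 7 were higher and 3 lower (27.8%, against 13.7% of all genes, with 7.96% higher and 5.78% lower). The count upward includes genes near 0 UMIs in shControl. Ptbp3, a paralog of Ptbp1, was counted with 0, 2 and 3 UMIs in shControl and 27, 49 and 40 in shLmna, a pooled ratio of 24.3 (exact 95% interval 10.1 to 76.4, adjusted p = 0.00011, edgeR). Mbnl1, the muscleblind regulator sequestered in myotonic dystrophy, had 0, 4 and 3 UMIs against 33, 68 and 28, a ratio of 19.3 (9.12 to 49.1, adjusted p = 0.00013). Qk, the quaking STAR protein, had 0, 1 and 4 UMIs against 26, 50 and 25, a ratio of 21.2 (8.79 to 66.7, adjusted p = 0.00028). Like Srsf10 and Bclaf1, these genes were at 4 UMIs or fewer in every shControl library and at 12 or more in every shLmna library. They passed the filter on low counts only through shLmna, so their calls are a description. The other 4 that rose had Log2FoldChanges from 0.74 to 3.08. Mbnl2, on the same list and named after its value was seen, had 8 UMIs summed over shControl and 68 over shLmna. Its pooled ratio was 8.92 (exact 95% interval 4.28 to 21.5, counting error only), and it too is only a description. Pspc1, a paraspeckle protein, fell by 0.71 (adjusted p = 0.031), Celf1, which binds GU-rich elements, by 0.63 (adjusted p = 0.033), and Rbm14, another paraspeckle protein, by 0.55 (adjusted p = 0.034). Without the pair with melanocyte markers the change of Celf1 was -0.43 and missed the threshold (adjusted p = 0.14). When each library was left out in turn, Pnn, Srrm2, Eif4a3, Cwc27, Tnpo3, Pspc1, Celf1 and Rbm14 each lost the call in at least 3 of these 6 fits.

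**Figure D5:**
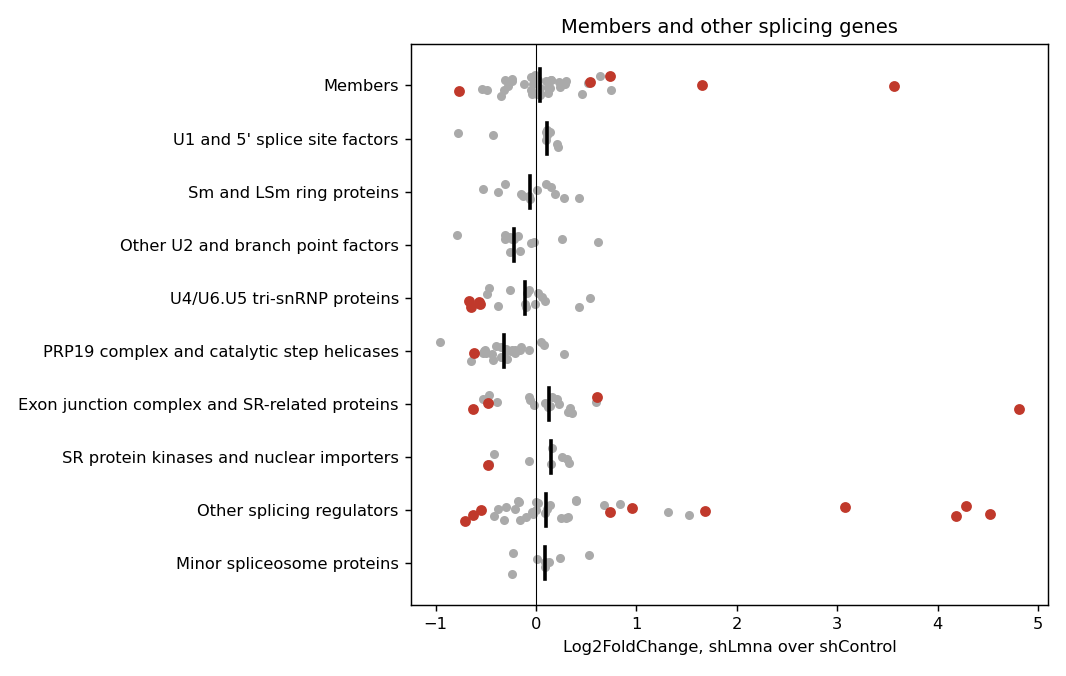
Log2FoldChange of shLmna over shControl for the tested members and for 9 lists of other splicing genes, with a red point for an adjusted p below 0.05, a grey point otherwise and a black bar at the median of each list. The PRP19 and helicase list has the lowest median, at -0.32, and the points far to the right are genes with few UMIs in shControl.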

How the data were processed

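RNA of 3 shControl and 3 shLmna libraries of E0771 cells was measured by MARS-seq. Per the labels and the study's methods, the authors trimmed reads with cutadapt, mapped them to mm10 with STAR 2.4.2a and assigned UMIs to RefSeq genes over a window of the final 1000 bases plus 100 bases beyond the end. The deposited counts are whole numbers with no normalization, and every gene reaches at least 6 UMIs in some library. Whether counting used the strand is not given in the sources used here, so reads of members that overlap a gene on the other strand (5 members) cannot be told apart from it. The deposited log2 values corrected with ComBat and the deposited DESeq2 table, which holds fold changes and p-values of the authors' own comparison, were not used.

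The counts were tested in R 4.3.3 with edgeR 4.0.16 (filterByExpr with a minimum count of 10, TMM factors, quasi-likelihood test, Benjamini-Hochberg adjustment over 8969 genes, threshold 0.05). A Log2FoldChange is shLmna over shControl, fitted by edgeR with its default prior count. A prior count of 2 was used only for log2 CPM, as in the GC correction and the comparison of same-numbered libraries. Alternatives used DESeq2 1.42.0 and limma-voom 3.58.1. GC content was taken from GENCODE M21 transcripts, and the correction was a loess offset for each library (span 0.3). The scripts were tested on simulated counts. Copies of the counted ends were searched with blastn 2.17.0. The ends of 9 members matched pseudogenes, namely Hnrnpa1, Hnrnpf, Hnrnph2, Hnrnpl, Rbm39, Sf3b4, Srsf5, U2af1 and U2af2.

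Members named with values in every library are those that passed, the 6 named singly, the highest of each family, and those with the next smallest p up to 25 genes. In each other list, up to 3 higher and 3 lower passing genes were named. The members, lists and tests were chosen with earlier results of these data known. The libraries held between 1846208 and 3242051 UMIs, and counting intervals at 95% cover counting error only. On the plate, shControl took positions 13 to 15 and shLmna 16 to 18, and the effects of position and of group cannot be told apart.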

Additional observations from a re-analysis of the deposited data

How the results depend on the processing

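Hnrnpll passed in every fit, and Hnrnpa1 in all but the fit without shControl replicate 2. RLE and upper-quartile scaling and limma-voom called the same 5 members, and library totals did too, while turning Ptbp1 to 0.0011 and Hnrnpab to 0.024. With 4 members higher and 1 lower at first, the number lower was 2 with DESeq2, 2 with the replicate block, 2 with GC correction, and 3 (with 2 higher) with GC correction and the replicate block. All genes passing were 1232 at first, and 1033, 1350, 1502 and 1390 in these fits in turn. Members called by the study's criteria went from 2 to 1 with a mean count of at least 50, with GC correction and with GC correction and the block. A mean count of at least 50 left 2 other splicing genes higher, from 9, and 779 of all 5846 genes passed. GC correction, without and with the block, turned Srsf5 to -0.093 and -0.10 and Hnrnpk to -0.0014 and -0.016. It turned Hnrnpu to -0.19 and -0.19, Srsf3 to -0.12 and -0.12 and Pnn to -0.14 and -0.14. Other members also turned with GC correction without the block. These were Srsf2 (-0.41), Srsf11 (-0.51), Hnrnpa0 (-0.31), Hnrnph3 (-0.24), Hnrnph1 (-0.0048) and Sf3b2 (0.020). The cause was not tested.

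The replicate block called 8 members, adding Hnrnpk, Sf3b3 and Tra2b, and 1350 of all 8969 genes. The deviations of same-numbered libraries correlated at 0.35, -0.11 and 0.0052, and those of shControl replicate 3 and shLmna replicate 2 at 0.35. With 3 libraries in each group, these values cannot show whether the numbers pair the samples. Leaving out each library in turn gave 2 to 7 members higher, 0 to 3 lower and 2 to 4 by the study's criteria, and 7 to 17 other splicing genes higher and 1 to 15 lower. The members called were 5 and 2 without shControl replicates 1 and 2, 10 without replicate 3, and 6, 3 and 3 without shLmna replicates 1, 2 and 3. In the same order, 794, 540, 1580, 866, 757 and 651 of all genes tested passed, against 1232 with all libraries. Changes near 0 turned in these fits, ranging from -0.14 to 0.38 for U2af1, -0.17 to 0.27 for U2af2, -0.14 to 0.022 for Ptbp1, -0.20 to 0.18 for Srsf5 and -0.17 to 0.019 for Sf3b5.

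With the libraries with melanocyte markers left out, which was chosen after seeing the data, 2 members were lower and Srsf5 turned to -0.023. With a term for them 3 members were lower, 17 other splicing genes were higher and 22 lower, while 20.8% of all genes passed. Srsf5 turned to -0.0036 in that fit. Genes at a few UMIs, such as Srsf1 and Srsf10, are limited by depth.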
